A study of Homo sapiens with 88 samples.

Results

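The response of NCI-H146 to the treatment that the titles call 552A was followed on 12 arrays, 6 with 552A and 6 with the vehicle DMSO, of the 88 arrays of the series. The members were the arrays whose titles name NCI-H146, and each of days 2, 4 and 7 had 2 arrays with each agent. NCI-H146 is an established small cell lung cancer (SCLC) line, grown as the other lines in RPMI medium with 10% fetal bovine serum. Per the protocol the cells received the vehicle or 1 µM GSK2879552, which inhibits LSD1, a histone demethylase, and no label says that 552A is that compound. The series describes 3 lines sensitive to growth inhibition and 3 resistant ones, and the labels do not say to which kind NCI-H146 belongs. Total RNA was hybridised to Affymetrix HG-U133 Plus 2.0 arrays, and the other lines with the same days were SHP-77, NCI-H526, NCI-H510, COLO668 and NCI-H446. The labels do not tell whether the 2 arrays in each group stand for separate cultures, and the p-values measure only the spread between arrays, which may be technical.

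SCLC is a high-grade tumour whose cells usually carry a neuroendocrine program, with dense core granules, neuropeptides and neural transcription factors. The enzyme, encoded by KDM1A, removes methyl groups from lysine on histone H3 and sits in repressor complexes with CoREST and zinc finger factors such as INSM1 and GFI1. Many SCLC cells keep Notch signalling low, and Notch receptor activity is known to oppose the neuroendocrine state.

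Levels are given as log2 signals as deposited, so that a difference of 1 is a 2-fold difference. A change is 552A minus DMSO on that scale, from a limma fit with its standard error (SE), and a gene rose or fell where the Benjamini-Hochberg adjusted p over the 15352 genes tested was below 0.05. The signals carried the neuroendocrine label of the line: INSM1 (13.5), CHGA (12.3), NCAM1 (12.3), DDC (13.1) and UCHL1 (14.3) were bright in the DMSO arrays, and GRP (9.37) and SYP (8.09) were lower. Dim in both arms, below a mean of 6.09, were 1 of 4 tuft cell markers (POU2F3, 4.60), 2 of 6 markers of YAP1-high or mesenchymal SCLC (YAP1, 5.87, and ZEB1, 4.20), 1 of 6 fibroblast markers (LUM, 3.83) and 2 of 4 endothelial markers (CDH5, 5.21, and KDR, 5.20). Others of these classes were above that limit, with SOX9 at 9.37, VIM at 9.27, REST at 8.56, ASCL2 at 8.16, PECAM1 at 8.06, CD44 at 8.04 and DCN at 7.60. KDM1A itself lay between 11.64 and 11.87 in DMSO and between 11.73 and 11.83 in 552A, and its change of 0.04 ± 0.05 (SE, adjusted p = 0.880) did not pass. Array medians lay between 7.38 and 7.43 in NCI-H146, the replicate arrays of a group correlated at 0.996 to 0.997, and no pair of arrays was identical. The difference between the 3' and 5' probe sets of ACTB, a measure of RNA integrity, ranged from -0.13 to 0.04 in this line, where 5 arrays of other lines exceeded 0.8.

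Averaged over the 3 days, 655 genes rose and 326 fell, which is 6.39% of the genes tested (4.27% up and 2.12% down). The median change over all genes was 0.01. Most called changes were small, with a median size of 0.37, and 28 of the genes that rose and 7 of those that fell changed by at least 1. The largest rises came from FRZB, a secreted inhibitor of Wnt ligands, the intermediate filament gene VIM, the potassium leak channel gene KCNK9 and the receptor gene NOTCH2. The largest falls came from NKX2-2, a homeodomain factor of the ventral neural tube and of pancreatic endocrine cells, PDGFRA, a receptor for platelet-derived growth factor, CLDN18, a claudin of lung and stomach tight junctions, and the transcription factor gene ETS1.

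FRZB lay between 6.76 and 7.25 in the DMSO arrays (median 7.13) and between 9.16 and 9.92 in the 552A arrays (median 9.47). It rose by 2.47 ± 0.12 (adjusted p = 1.57e-23), a 5.52-fold difference. VIM had a range of 9.10 to 9.54 in DMSO (median 9.24) and of 10.85 to 11.73 in 552A (median 11.38), and rose by 2.08 ± 0.10 (adjusted p = 1.57e-23). The ranges of the arms lay more than a log2 unit apart for FRZB and VIM, and every 552A array stood above every DMSO array. KCNK9 was flat over the days on either side, at 8.20 to 8.46 in DMSO (median 8.30) and 10.29 to 10.55 in 552A (median 10.40), a rise of 2.07 ± 0.11 (adjusted p = 5.1e-21). NOTCH2 rose by 1.93 ± 0.11 (adjusted p = 1.56e-20), from 6.89 to 7.47 (median 7.24) in DMSO to 8.44 to 9.53 (median 9.26) in 552A. The other probe sets of these genes moved the same way by less or by a like amount, or were dim: a second probe set of FRZB rose by 1.38, a second of KCNK9 by 0.42 and others of NOTCH2 by 2.01 and 0.82.

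The next rises were those of ANXA3 (1.82), a phospholipid-binding annexin, LBH (1.58), a transcription cofactor, LRRN4 (1.53), a leucine-rich repeat membrane protein, SORCS3 (1.48), a receptor of the sortilin family, and PTPN14 (1.48), a phosphatase that binds the coactivator YAP. APCDD1 (1.37), a membrane inhibitor of Wnt signalling, FEZ1 (1.37), an adaptor for transport along axons, and GJA1 (1.35), a gap junction connexin, completed the 12 largest. For the first 11 of these 12 the arms did not overlap over the 6 arrays each. The arms of GJA1 overlapped, and its level also differed between days in the vehicle, from 8.97 and 8.88 at day 2 to 9.75 and 9.36 at day 7, while the 552A arrays went from 9.68 and 9.86 to 11.52 and 11.26. The rises of ANXA3 and SORCS3 may be lower limits, since their DMSO means (6.03 and 6.01) were dim. Among the lines with the same days, the mean of SORCS3 over days exceeded the limit of the filter on dim probe sets (7.41) only in NCI-H146 with 552A (7.49). The test of its rise may thus not be independent of the filter.

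NKX2-2 lay between 8.30 and 8.92 in DMSO (median 8.45) and between 6.14 and 6.90 in 552A (median 6.49), and fell by 2.00 ± 0.13 (adjusted p = 7.69e-18), a 4.01-fold difference. PDGFRA fell by 1.60 ± 0.09 (adjusted p = 1.73e-20), from 7.85 to 8.38 (median 8.12) in DMSO to 5.94 to 7.28 (median 6.53) in 552A. The call for PDGFRA rests on 1 probe set: the 3 others were fainter and changed by between -0.16 and 0.05, and without the filter on dim probe sets a different one is used, with a change of -0.16 (adjusted p = 0.159). Among the lines with the same days, the mean of PDGFRA over days exceeded the filter limit (7.41) only in NCI-H146 with DMSO (8.10). The tests of its fall, at day 2 as well, may thus not be independent of the filter. CLDN18 fell by 1.43 ± 0.10 (adjusted p = 2.09e-16), with 10.38 to 11.27 in DMSO (median 10.91) and 8.65 to 10.28 in 552A (median 9.37), and its 3 other probe sets fell by 1.13, 1.50 and 2.15. ETS1 fell by 1.39 ± 0.12 (adjusted p = 4.84e-14), with 9.50 to 10.19 in DMSO (median 9.90) and 7.82 to 9.18 in 552A (median 8.58). The arms did not overlap in any of these 4 genes. Next came CALB2 (-1.21), the calcium-binding protein calretinin, GRP (-1.10), the neuropeptide gastrin-releasing peptide, RGS4 (-1.08), a brake on G protein signalling, and EYA1 (-0.97), a transcriptional coactivator of ear and kidney development. EVA1A (-0.96), FRMD3 (-0.96), NEB (-0.95), a giant actin-binding protein of muscle, and RALYL (-0.94), an RNA-binding protein, completed the 12 largest falls of 1 sign on all days. The arms overlapped over all arrays for GRP and RGS4 and for no other of the 12.

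**Figure D1:**
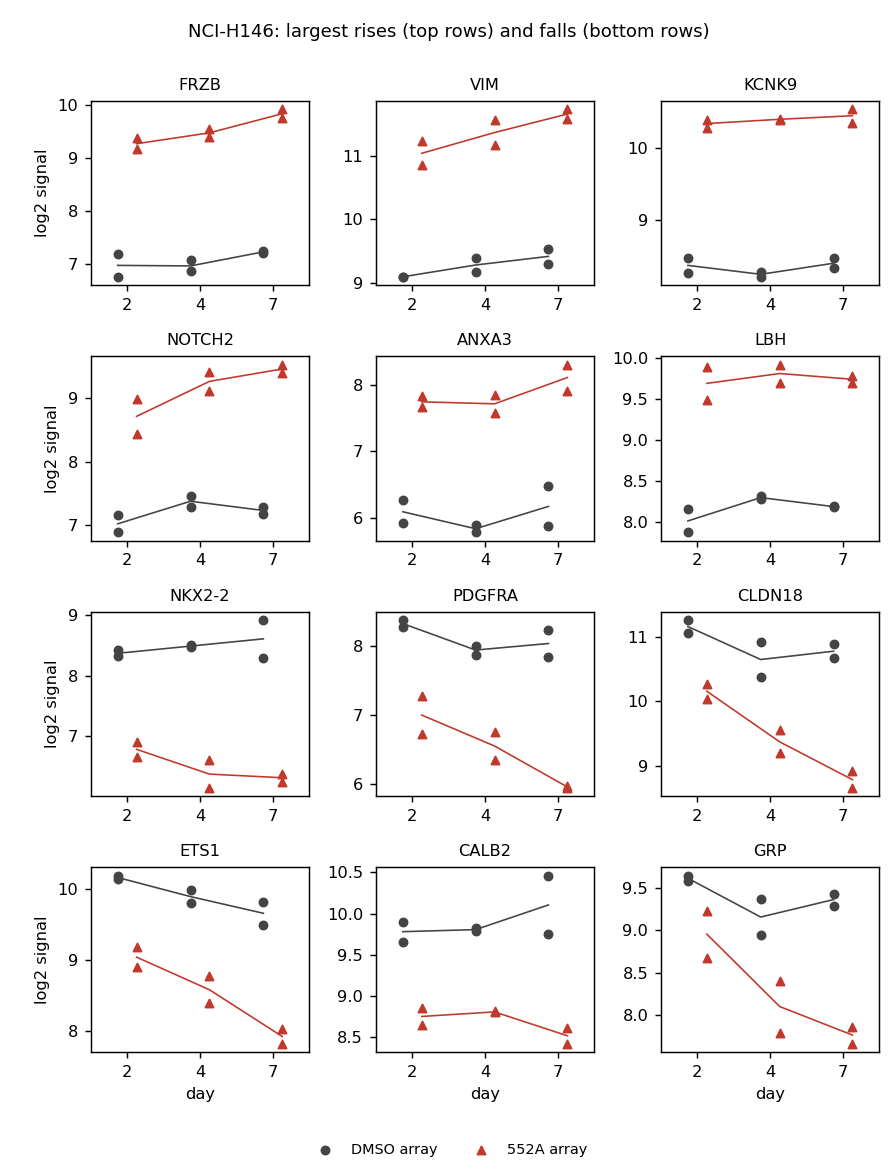
Log2 signal of the 6 genes with the largest rise (upper 2 rows) and the 6 with the largest fall (lower 2 rows) against day in NCI-H146, with each DMSO array as a grey circle, each 552A array as a red triangle and lines through the mean of 2 arrays. On every day both 552A arrays lay on the same side of both DMSO arrays, and the estimated fall of each of the 6 lower genes was larger at day 7 than at day 2, a difference that passed the test for none of them.

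The promoters of 3 of the 4 genes with the largest rises, of the gene with the largest fall and of PTPRC, the late riser described below, are shown to let their base composition be compared. RefSeq on GRCh38.p14 had an entry for each of the 5 genes, and the 250 bases before the gene start are given 5′ to 3′ on the gene's strand. Capitals mark CANNTG, the E-box that basic helix-loop-helix factors and the zinc finger repressors ZEB1 and SNAI2 can bind, which reads the same on either strand.
FRZB (chr2:182866638-182866887, minus strand): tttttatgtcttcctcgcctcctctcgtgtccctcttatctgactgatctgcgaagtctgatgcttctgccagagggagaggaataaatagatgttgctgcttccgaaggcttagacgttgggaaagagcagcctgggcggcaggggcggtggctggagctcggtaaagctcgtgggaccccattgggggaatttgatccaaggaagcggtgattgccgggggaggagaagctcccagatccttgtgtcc
VIM (chr10:17227991-17228240, plus strand): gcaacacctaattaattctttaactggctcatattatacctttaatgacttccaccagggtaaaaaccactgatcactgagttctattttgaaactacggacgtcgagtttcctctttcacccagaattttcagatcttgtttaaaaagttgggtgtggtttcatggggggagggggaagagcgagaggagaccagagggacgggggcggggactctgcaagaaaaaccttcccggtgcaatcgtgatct
NOTCH2 (chr1:120069663-120069912, minus strand): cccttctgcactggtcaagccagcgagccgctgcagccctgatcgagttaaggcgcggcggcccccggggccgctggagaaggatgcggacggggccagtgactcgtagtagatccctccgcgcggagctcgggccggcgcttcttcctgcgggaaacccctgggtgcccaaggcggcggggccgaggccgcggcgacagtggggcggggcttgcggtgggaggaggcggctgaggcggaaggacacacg
NKX2-2 (chr20:21522690-21522939, minus strand): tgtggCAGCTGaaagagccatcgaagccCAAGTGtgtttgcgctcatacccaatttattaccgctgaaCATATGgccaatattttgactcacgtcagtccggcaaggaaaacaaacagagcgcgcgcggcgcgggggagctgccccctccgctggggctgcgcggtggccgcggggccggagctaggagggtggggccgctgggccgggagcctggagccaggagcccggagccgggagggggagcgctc
PTPRC (chr1:198638790-198639039, plus strand): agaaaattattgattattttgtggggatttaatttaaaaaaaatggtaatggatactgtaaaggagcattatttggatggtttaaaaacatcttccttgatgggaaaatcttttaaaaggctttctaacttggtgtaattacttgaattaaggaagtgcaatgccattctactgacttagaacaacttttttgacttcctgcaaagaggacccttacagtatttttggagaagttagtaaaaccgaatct
The letters CANNTG occur in 61.8% of the 35116 promoter windows of the table. They occurred 3 times before NKX2-2 and in none of the other 4 windows shown. NKX2-2 had 2 entries, and the window of the other, at chr20:21512961-21513210, held none. The windows differed in CpG dinucleotides, with 29 before NOTCH2, 22 before NKX2-2, 11 before FRZB, 8 before VIM and 1 before PTPRC, beside a median of 11 over the table. Their GC content was 72.8%, 66.0%, 55.6%, 46.0% and 31.2% in that order, beside a median of 58.0%. A match of letters is not a binding site.

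At day 2, 129 genes had risen and 31 had fallen, 1.04% of those tested (0.84% up and 0.202% down). At day 4, 117 had risen (0.762%) and 50 had fallen (0.326%), 1.09% in all, and at day 7, 227 had risen (1.48%) and 152 had fallen (0.99%), 2.47% in all. The early genes were led by those already described: FRZB (2.29), KCNK9 (1.99), VIM (1.94), NOTCH2 (1.69), LBH (1.68), ANXA3 (1.65), PTPN14 (1.51) and LRRN4 (1.44) rose most at day 2, and NKX2-2 (-1.59), PDGFRA (-1.33), ETS1 (-1.13) and RGS4 (-1.08) fell most. The fall of RGS4 at day 2 (adjusted p = 0.0486) lost its call with any of 7 single arrays left out, with quantile normalization and with no filter, that of CALB2 (-1.03) with any of 4 arrays and that of C7orf57 with any of 2. Of the 160 early genes, 109 were also called at day 7 with the same sign, 157 had an estimate of the same sign at day 7 and 0 were called there with the opposite sign. Genes called with the same sign on all 3 days numbered 73 up and 15 down. The counts of single days rest on 2 arrays a group. They fell to 52 at day 2 without replicate 2 of DMSO and to 53 without replicate 2 of 552A, to 83, 93 and 111 at day 4 without 552A replicate 2, DMSO replicate 1 and DMSO replicate 2, and to 178, 222 and 226 at day 7 without 552A replicate 2, DMSO replicate 1 and DMSO replicate 2.

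Whether the response grew over time was read on the genes called at day 4, since days 2 and 7 share no array with it. The 50 genes that had fallen at day 4 had a median change of -0.50 at day 2 and of -0.93 at day 7, and the fall was larger at day 7 in 47 of them (94.0%). The 117 genes that had risen had medians of 0.67 and 0.78, and the rise was larger at day 7 in 86 (73.5%). With each day 2 or day 7 array left out in turn, 43 to 48 of the falls and 63 to 93 of the rises were larger at day 7; the fewest rises came without DMSO day 2 replicate 1 and the fewest falls without 552A day 7 replicate 2. These are descriptions without a test.

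**Figure D2:**
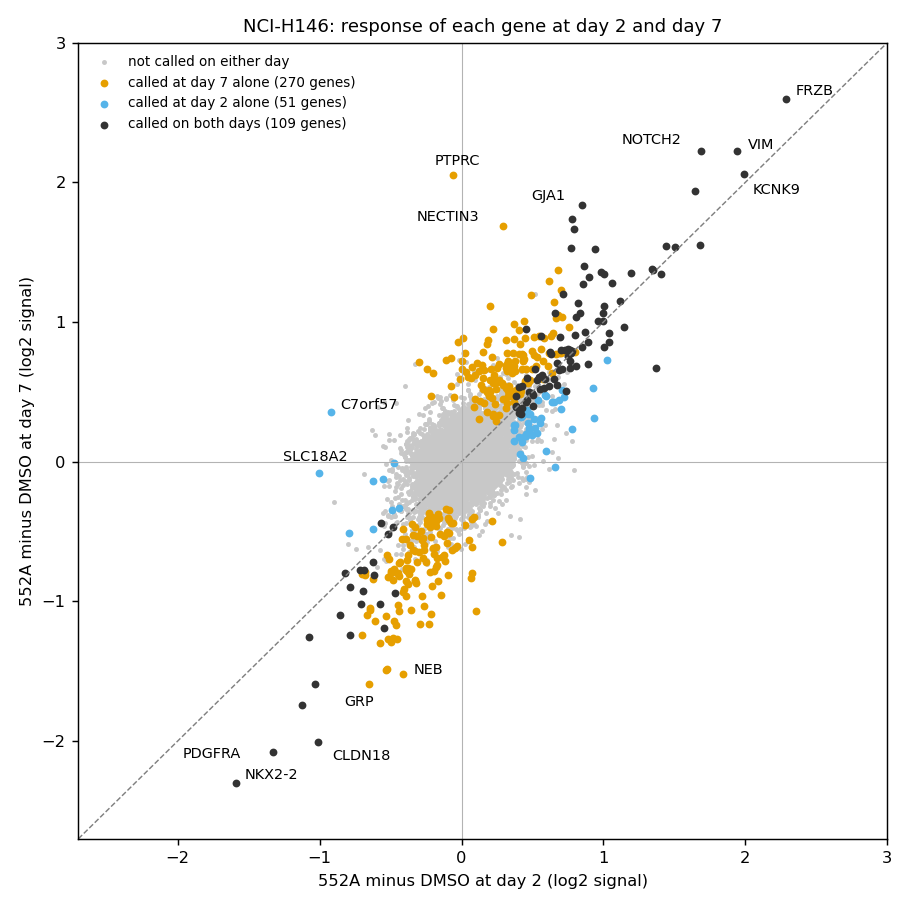
Change of each of the 15352 genes at day 2 (x axis) and at day 7 (y axis) in NCI-H146, both as 552A minus DMSO in log2 signal, with the dashed line at equal change. Called genes lie along the diagonal, and PTPRC (-0.06 and 2.05) and C7orf57 (-0.92 and 0.35) stand far from it. Most falls lie below the diagonal, which partly follows from the calls, since 152 genes were called down at day 7 and 31 at day 2.

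The change of the response from day 2 to day 7 was tested directly, and it passed for 8 genes (0.0521% of those tested), in 7 toward higher (0.0456%) and in 1 toward lower values (0.00651%), with 408 at an unadjusted p under 0.05. Late rises were seen in PTPRC, the leukocyte phosphatase CD45, NECTIN3, a cell adhesion protein, TRAT1, a T cell receptor adaptor, LGI1, a secreted neuronal protein, SULT1E1, an estrogen sulfotransferase, and CD36, a fatty acid and scavenger receptor. NEB fell late, and C7orf57 fell at day 2 with no call on the later days. With the arrays of NCI-H146 alone, limma called 0 of the genes for this change, with 916 at an unadjusted p under 0.05 and the smallest adjusted p at 0.0547 (PTPRC and NECTIN3), so that the calls rest on a spread pooled over all lines. They also hang on single arrays for 5 of the 8: of the 12 single arrays left out in turn, 8 ended the call of SULT1E1, 5 that of CD36, 5 that of TRAT1, 4 that of NEB and 3 that of C7orf57. The call of SULT1E1 was also lost with no filter on dim probe sets (adjusted p = 0.0548), with a stricter one (0.0781) and with an intensity trend (0.109).

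PTPRC lay at 6.20 and 5.79 in DMSO and 5.91 and 5.95 in 552A at day 2. It lay at 5.82 and 5.53 against 6.94 and 6.81 at day 4, and at 5.92 and 5.60 against 7.52 and 8.09 at day 7. The arms overlapped at day 2 and were apart on the later days, with changes of -0.06, 1.20 and 2.05, and the response grew by 2.11 ± 0.19 between days 2 and 7 (adjusted p = 1.34e-11). Its DMSO mean was dim (5.81), so that the rise may be a lower limit. In this line the probe set exceeded the filter limit of 7.41 at day 7 in 552A alone, the group where it was highest. Its place among the genes tested may thus rest on the rise itself. A fainter probe set changed by 0.47, 0.61 and 1.23, and 3 others were dim in both arms and changed by -0.07 to -0.05 on average. Without the filter on dim probe sets that fainter one stands for the gene, and the difference between days was 0.75 (adjusted p = 0.367). Beside TRAT1, which belongs to T cells and is described below, 0 of the 6 genes tested from the T and B lymphocyte list were called by limma (range -0.11 to 0.05; 0 at an unadjusted p under 0.05), and CD3D, CD3E and CD79A had DMSO levels of 7.54, 7.63 and 8.57. The myeloid markers CD14, LYZ, CSF1R, ITGAM and TYROBP had no probe set that passed the filter.

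NECTIN3, also dim in DMSO (5.50), showed a similar course, from 5.57 and 5.46 in DMSO and 5.82 and 5.79 in 552A at day 2 to 5.44 and 5.51 against 6.99 and 7.34 at day 7. Its response grew by 1.40 ± 0.22 (adjusted p = 0.000506). TRAT1 was at 7.17 and 7.04 against 6.96 and 6.66 at day 2 and at 7.14 and 7.16 against 7.48 and 8.24 at day 7, where the second 552A array was clearly above the first. CD36 was not called before day 7, when it lay at 8.80 and 9.08 in DMSO and 9.80 and 9.86 in 552A. Of its fainter probe sets, 2 had larger changes on the earlier days (0.57, 0.58 and 1.14, and 0.30, 0.50 and 1.02). SULT1E1 at day 7 reached 6.53 and 6.56 against 5.79 and 5.59. In LGI1 the vehicle moved as well: DMSO fell from 7.37 and 7.22 at day 2 to 6.96 and 6.85 at day 7, while 552A went from 7.07 and 7.04 to 7.49 and 7.65. In this line the group means of TRAT1 and of LGI1 exceeded the filter limit of 7.41 at day 7 in 552A alone. The place of TRAT1 and LGI1 among the genes tested may thus rest on the rise itself, as for PTPRC. NEB went the other way, at 7.98 and 7.62 in 552A at day 2 and 6.55 and 6.80 at day 7, beside 8.41 and 8.01, then 8.13 and 8.26 in DMSO, and its response fell by 1.10 ± 0.21 (adjusted p = 0.00854).

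C7orf57, an uncharacterised open reading frame, was the single fading gene. Among the time course lines its mean passed the filter (7.41) only in NCI-H146, in DMSO at day 2 and 552A at day 7. Its DMSO means in the other lines were 3.49 to 5.02. A high level in either of those groups makes the tested difference between days larger, so that this test was not independent of the filter. At day 2 C7orf57 lay at 7.41 and 7.68 in DMSO and 6.75 and 6.51 in 552A, a fall of 0.92 ± 0.16 (adjusted p = 0.000322). At day 7 the order was turned, with 7.08 and 7.14 against 7.43 and 7.51, a change of 0.35 (adjusted p = 0.491) that did not pass. SLC18A2, the vesicular monoamine transporter, had a similar course without a called change: it fell by 1.01 at day 2 (adjusted p = 8.73e-05), from 10.13 and 9.80 to 8.95 and 8.97, and at day 7 lay at 9.93 and 9.90 against 9.76 and 9.89. A further 263 genes were called at day 7 and not at day 2 without a called change of the response, and their days are not said to differ.

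**Figure D3:**
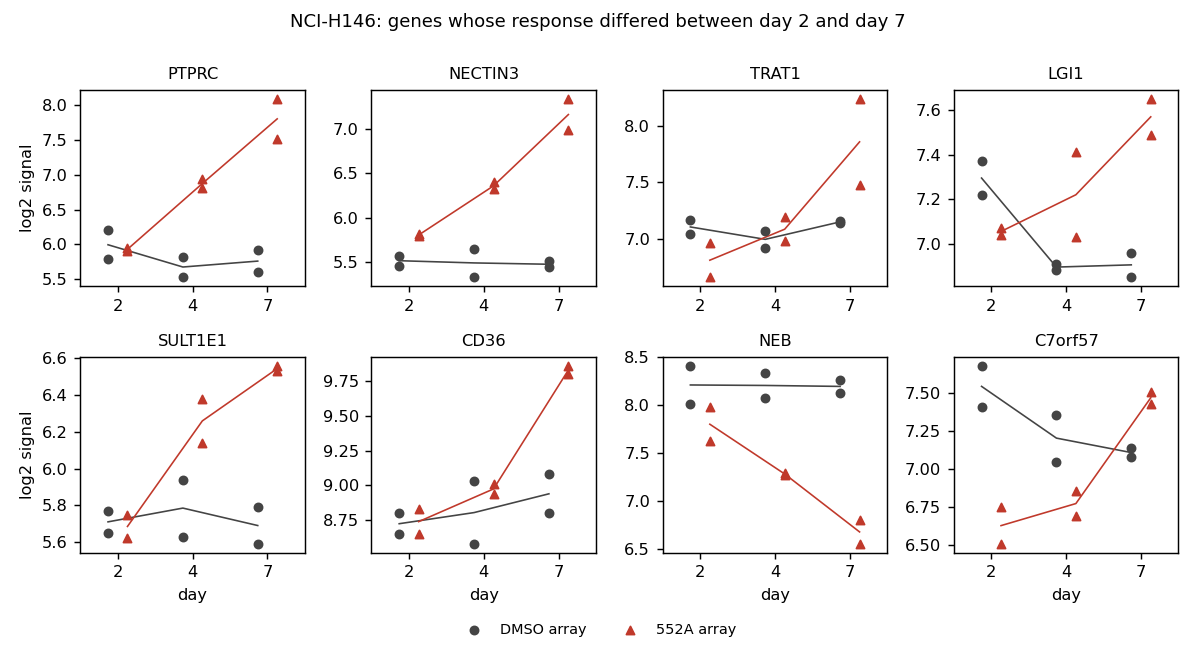
Log2 signal against day in NCI-H146 for the 8 genes whose response differed between day 2 and day 7, with DMSO arrays as grey circles, 552A arrays as red triangles and lines through the means of 2 arrays. PTPRC and NECTIN3 are higher on each later day in 552A, the arms of CD36 are apart at day 7 alone, and those of C7orf57 cross.

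Gene lists were read next by the number of members called for the response averaged over days, against the 4.27% of all genes that rose and the 2.12% that fell. The lists were chosen with earlier results of these data known, so that shares above these percentages may be partly built in. Among neuroendocrine markers 8 of 29 fell and 1 rose, with a median change of -0.06. GRP lay between 8.94 and 9.64 in DMSO (median 9.40) and between 7.67 and 9.23 in 552A (median 8.14), and fell by 1.10 ± 0.19 (adjusted p = 2.49e-05). ISL1, a LIM homeodomain factor, fell by 0.67 (11.32 to 11.92 in DMSO, 10.52 to 11.42 in 552A), ADCYAP1, the neuropeptide PACAP, by 0.62 (6.87 to 7.20 against 5.80 to 6.86), and RAB3B, a GTPase of secretory vesicles, by 0.59 (10.80 to 11.10 against 10.04 to 10.69). DDC (-0.38), SCN3A (-0.38), RTN1 (-0.28) and SYT1 (-0.19) fell less, and the adhesion molecule NCAM1 rose by 0.19. The brightest markers did not pass: CHGA changed by 0.13 (adjusted p = 0.186), INSM1 by 0.00 (adjusted p = 0.991) and UCHL1 by 0.02 (adjusted p = 0.935).

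Among neural and neuroendocrine transcription factors, 4 of 25 fell (NKX2-2, ISL1, PROX1 and ST18) and 1 rose (INSM2, by 0.52). ST18, a zinc finger factor, fell by 0.23 (adjusted p = 0.0325), a change that lost its call with any of 9 single arrays of NCI-H146 left out, and PROX1 by 0.30 (adjusted p = 0.0398), which lost it with any of 8. REST, the repressor of neuronal genes, changed by 0.05 (adjusted p = 0.917) in its brightest probe set. Its mean over the 2 probe sets that passed the filter changed by 0.68 (adjusted p = 6.53e-12), which came from 1 fainter set that rose by 0.78, 1.36 and 1.80 over the days, and the remaining set changed by -0.01. Among vesicle and channel genes, 8 of 38 synaptic vesicle genes fell and 2 rose, and 8 of 34 ion channel genes fell and 2 rose. The lists share members, so that their counts are not separate: RAB3B is in the neuroendocrine and synaptic lists. ISL1 is in the neuroendocrine and transcription factor lists. SV2B, a synaptic vesicle glycoprotein, fell by 0.74 ± 0.12 (9.85 to 10.26 in DMSO, 8.86 to 9.81 in 552A), and the calcium channel subunit gene CACNA1A by 0.74 ± 0.13 (11.25 to 11.97 against 10.09 to 11.44). The monoamine transporter SLC18A1 fell by 0.64, the sodium channel gene SCN2A by 0.70 and the nicotinic receptor subunit gene CHRNA3 by 0.52, while the glutamate transporter SLC17A6 (0.47) and the sodium channel gene SCN9A (0.54) rose. At day 7 alone the falls in these lists were 5 of 29, 4 of 38 and 5 of 34, and at day 2 they were 1, 1 and 1, beside 0.99% and 0.202% of all genes.

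Notch pathway members rose in 4 of 32 cases and fell in none, with a median of 0.03. Beside NOTCH2, the receptor NOTCH1 rose by 0.62 ± 0.10 (adjusted p = 5.62e-06), the ligand JAG2 by 0.26, a call lost with any of 5 single arrays left out, and the target HES4 by 0.23. NOTCH1 was at 8.18 and 7.76 in DMSO and 8.92 and 8.89 in 552A at day 2, and at 8.18 and 8.05 against 8.58 and 8.28 at day 7. Its changes were 0.93, 0.61 and 0.31 over the days, its second probe set changed by 0.02 on average, and the difference between days did not pass. The ligand DLL3 (-0.24, adjusted p = 0.103) and the target HES1 (-0.11, adjusted p = 0.818) did not pass.

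Among 27 genes of LSD1 and its partner proteins, the CoREST complex subunit gene HMG20B fell by 0.25 (adjusted p = 0.00415), and the other 26 were not called. Among 13 myeloid and hematopoietic genes tested of 28 listed, PTPRC rose and the differentiation factor CEBPA rose by 0.40 ± 0.09 (7.80 to 8.01 in DMSO, 8.02 to 8.46 in 552A).

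Members of the epithelial and of the mesenchymal list rose. Of 33 epithelial genes 8 rose and 0 fell, with a median of 0.10, and of 40 mesenchymal genes 8 rose and 2 fell, with a median of 0.05. The epithelial risers were led by the zinc finger factors OVOL2, which rose by 0.90 ± 0.09 (9.86 to 10.11 in DMSO, 10.79 to 11.01 in 552A), and OVOL1, by 0.83 ± 0.08 (7.57 to 7.86 against 8.43 to 8.78), and both were called on each day. GRHL2, a grainyhead factor of epithelial junctions, rose by 0.68, the small GTPase RAB25 by 0.65, the keratin KRT19 by 0.49, the junction proteins OCLN by 0.39 and TJP1 by 0.34, and E-cadherin, CDH1, by 0.26. The mesenchymal risers beside VIM and ANXA3 were the galectin LGALS3 (0.85), AMOTL2 (0.54), fibronectin FN1 (0.54), N-cadherin CDH2 (0.41), ANXA2 (0.31) and TIMP1 (0.23). LGALS3 lay between 10.67 and 11.02 in DMSO and between 11.26 and 12.26 in 552A, with an adjusted p of 0.00643. The repressors ZEB1 (0.17, adjusted p = 0.328), dim in both arms, and SNAI2 (0.12) did not pass. Of 11 fibroblast markers PDGFRA and COL3A1 fell and 0 rose, and of 8 endothelial markers limma called 0 (0 at an unadjusted p under 0.05). COL3A1, whose 552A mean was dim (5.78), fell by 0.40 and changed by 0.04 with a different probe set when no filter on dim ones was used.

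TGF-beta and BMP signalling genes rose in 7 of 37 cases and fell in 1, and immediate early genes and their feedback regulators rose in 8 of 31 and fell in 0. The ligand TGFB2 rose by 0.96 ± 0.11 (8.94 to 9.45 in DMSO, 9.87 to 10.38 in 552A), and follistatin, FST, an extracellular antagonist of activin, by 0.79 ± 0.06 (11.11 to 11.23 against 11.80 to 12.16). Both were called on all 3 days. The inhibitor of differentiation genes ID3 (0.64) and ID1 (0.34), SMAD3 (0.41) and the receptor TGFBR2 (0.43, lost with any of 4 single arrays left out) also rose. DUSP6, a phosphatase that inactivates ERK, rose by 0.92 ± 0.13 (9.62 to 10.00 against 10.54 to 11.09). The mRNA decay factor ZFP36L1 rose by 0.96 ± 0.13, from a dim DMSO mean, with changes of 0.68 at day 2 and 1.37 at day 7. DUSP4 (0.51), SPRY4 (0.39), DUSP5 (0.30) and SPRY1 (0.29), further inhibitors of the same kinase pathway, rose as well.

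Of 52 cell cycle genes CCND1, the cyclin of early G1, rose by 0.39 ± 0.08 (7.39 to 7.89 in DMSO, 7.52 to 8.60 in 552A), and 51 were not called, with a median of -0.04. None of the 26 MYC family and ribosome biogenesis genes and none of the 26 genes of cholesterol and fatty acid synthesis was called by limma (ranges -0.18 to 0.13 and -0.29 to 0.23, with 2 and 3 at an unadjusted p under 0.05), and MYC lay between 12.49 and 12.72 in DMSO and 12.38 and 12.59 in 552A. Of 37 genes of arrest, p53 and apoptosis 3 rose and 1 fell. The death receptor gene TNFRSF10B rose by 1.28 ± 0.12 (adjusted p = 2.25e-12), from 7.98 to 8.41 (median 8.06) to 9.25 to 9.50 (median 9.39), and was called on every day. TP53INP1 (0.40) and BIK (0.43) rose and BCL2, an inhibitor of apoptosis, fell by 0.27. Amino acid and unfolded protein stress genes gave 2 rises and 2 falls among 33, and lysosomal genes 2 rises (NPC2 and CTSH) and 1 fall among 29, the regulator TFEB, by 0.57.

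MICB, a stress ligand of the NK cell receptor NKG2D, rose by 1.11 ± 0.10 (adjusted p = 9.25e-13), from 8.80 to 9.75 (median 9.31) in DMSO to 9.97 to 10.88 (median 10.38) in 552A, and NCR3LG1, a ligand of NKp30, rose by 0.34. They were the 2 called of 11 such ligands. Of 29 interferon response genes 4 rose, HERC5 most, by 0.82 ± 0.14 (7.32 to 7.71 against 7.72 to 8.65), and of 20 class I antigen presentation genes 1 rose (PSME1, by 0.19) and 2 fell (HLA-B and HLA-C, by 0.20 and 0.25). The call of HLA-B (adjusted p = 0.0471) was lost with any of 11 of the 12 single arrays left out, and among the interferon genes that of IFI6 with any of 8 and that of IRF1 with any of 3. That of HLA-C was lost in limma with the mean of its probe sets (-0.14, adjusted p = 0.206). The call of PSME1 was lost with the replicate number as a block (adjusted p = 0.0551). Of 40 axon guidance genes 3 rose and 2 fell, the receptors EPHA4 (-0.89) and ROBO2 (-0.71). Of 31 DNA methylation and polycomb genes the methyltransferase gene DNMT3B fell by 0.31 and MBD2 rose by 0.25. The rise of MBD2 lost its call with each of the 12 arrays left out and became -0.12 with the mean of its probe sets. Of 17 tuft cell genes ASCL2 rose by 0.38.

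**Figure D4:**
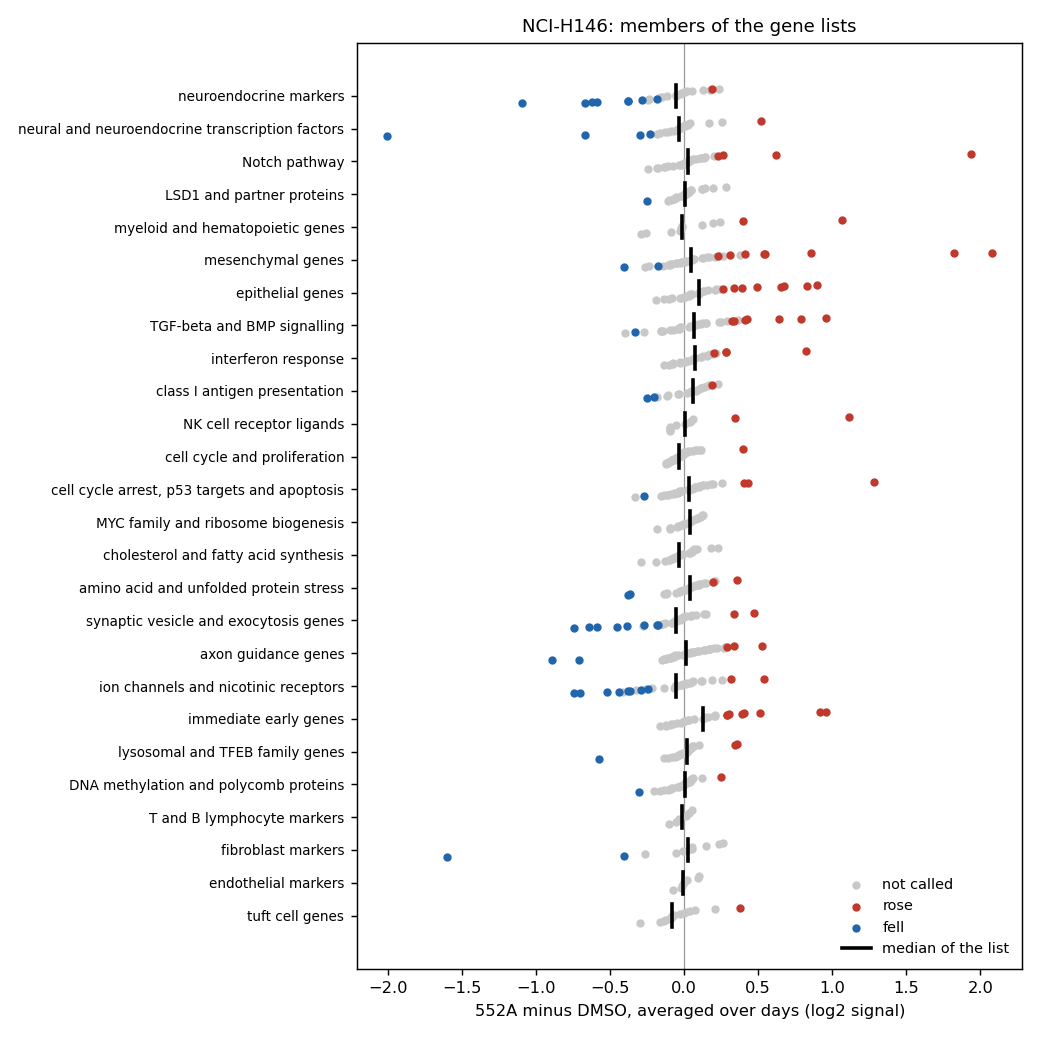
Change averaged over days (552A minus DMSO, log2 signal) of each tested member of the 26 gene lists in NCI-H146, with members that rose in red, members that fell in blue, members not called in grey and a bar at each list's median. All list medians lie between -0.08 and 0.13, and called members stand out to the left in the neuroendocrine, synaptic and ion channel lists and to the right in the epithelial and immediate early lists.

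The response of NCI-H146 was set against the mean response of the 5 other lines, each with its own DMSO arrays and days. The difference passed for 1019 genes (6.64% of those tested), 512 higher (3.34%) and 507 lower (3.3%) in NCI-H146. FRZB, KCNK9, NOTCH2, SORCS3, APCDD1 and RUNX1T1, a corepressor of the ETO family, responded most in excess of the other lines. NKX2-2, PDGFRA, SERTM1, a small membrane protein, EPHA4, CLDN18 and NIBAN1, a stress-induced protein, responded most below them. The other lines start from other levels: PDGFRA and SORCS3 were dim in both arms in all 5, FRZB in SHP-77, NCI-H526 and NCI-H446, NKX2-2 in NCI-H526, NCI-H510 and COLO668, SERTM1 in NCI-H526 and NCI-H446, RUNX1T1 in NCI-H526 and NIBAN1 in SHP-77. What part this had in the differences was not tested. Among the time course lines, the mean of SORCS3 over days exceeded the filter limit of 7.41 only in NCI-H146 with 552A (7.49). That of PDGFRA exceeded it only in NCI-H146 with DMSO (8.10). A high level in either of these arms makes the tested difference larger, so that the tests of SORCS3 and PDGFRA may not be independent of the filter.

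FRZB exceeded the other lines by 2.56 ± 0.13 (adjusted p = 1.8e-22). It rose in COLO668 by 0.58 and fell in NCI-H510 by 0.69, and the other 3 lines changed by -0.27 to -0.03. KCNK9 exceeded them by 2.10 ± 0.12, with -0.25 to 0.43 in the other lines. SORCS3 (1.48 more) and APCDD1 (1.37 more) were not called in any of the 5, where their changes ran from -0.06 to 0.10 and from -0.19 to 0.13. NOTCH2 rose in NCI-H526 (0.30), NCI-H510 (0.52) and COLO668 (1.08) too, and in NCI-H146 by 1.53 ± 0.12 more than their mean with the others. RUNX1T1 rose in NCI-H146 by 1.24 ± 0.09, from 9.25 to 9.60 in DMSO to 10.42 to 10.91 in 552A, fell in NCI-H510 by 0.99 and rose in NCI-H446 by 0.39.

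NKX2-2 fell in SHP-77 by 1.38 and in COLO668 by 0.39 and changed by -0.02 in NCI-H446, which was bright for it in DMSO (9.19), and the difference of NCI-H146 from the mean of the 5 was -1.63 ± 0.14 (adjusted p = 6.34e-13). PDGFRA also fell in SHP-77, by 0.84 between dim levels, and CLDN18 in COLO668, by 0.76. EPHA4 moved in opposite directions: it fell in NCI-H146 by 0.89 ± 0.07, from 8.39 to 8.69 in DMSO to 7.28 to 7.97 in 552A, and in SHP-77 by 0.26, and rose in NCI-H526 (0.90), NCI-H510 (0.93) and COLO668 (0.73). SERTM1 fell by 0.90 in NCI-H146 and rose in NCI-H510 (1.60) and COLO668 (0.74), and NIBAN1 fell by 0.76 and rose in the same pair of lines by 1.09 and 1.25. ISL1 fell in NCI-H146 and rose by 2.20 in NCI-H510, and ZEB1, not called in NCI-H146, rose in NCI-H526 (3.14), NCI-H510 (2.13) and COLO668 (1.25). VIM rose in 4 of the 5, most in NCI-H510, by 2.51, and PTPRC was called in none of them (-0.07 to 0.14).

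**Figure D5:**
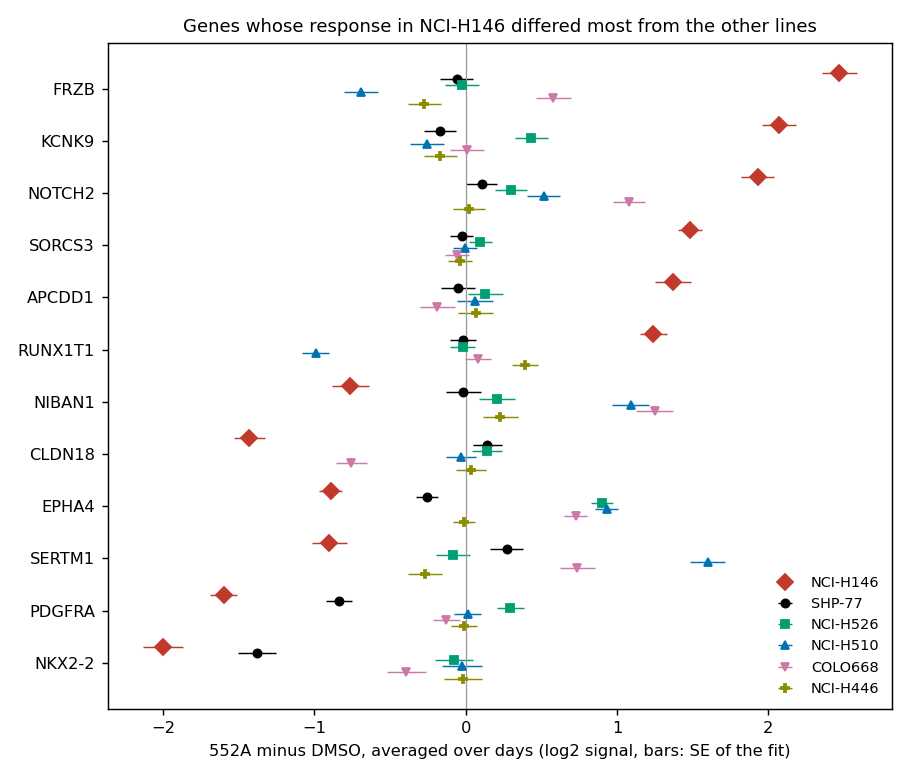
Change averaged over days (552A minus DMSO, log2 signal) in NCI-H146 and in each of the 5 other lines, for the 6 genes that responded most above and the 6 that responded most below the mean of the others, with bars for the SE of the fit. NCI-H146 is the highest point for the first 6 genes and the lowest for the last 6, with SHP-77 next to it for NKX2-2 and PDGFRA.

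Of the 655 genes that rose in NCI-H146, 269 (41.1%) also rose in COLO668, which is 14.2% of the 1895 that rose there, where 12.3% of all genes rose. The shared rises were 242 with NCI-H510 (36.9% and 18.3%), 219 with NCI-H526 (33.4% and 13.4%), 109 with NCI-H446 (16.6% and 16.5%) and 108 with SHP-77 (16.5% and 18.2%), where the lines' own background was 8.6%, 10.7%, 4.31% and 3.87%. Of the 326 genes that fell, 98 also fell in COLO668, 91 in NCI-H510, 57 in SHP-77, 51 in NCI-H526 and 13 in NCI-H446, where 8.81%, 6.44%, 4.27%, 10.5% and 1.28% of all genes fell. Genes that rose in NCI-H146 and fell in the other line numbered 66 for NCI-H526, 39 for NCI-H510, 33 for COLO668, 15 for SHP-77 and 14 for NCI-H446. Genes that fell in NCI-H146 and rose in the other line numbered 68, 45, 53, 22 and 32 in that order. The opposite calls among these falls outnumbered the shared ones with NCI-H526 (68 and 51) and with NCI-H446 (32 and 13). In NCI-H446 more of all genes rose (4.31%) than fell (1.28%). The raw counts therefore do not tell whether opposite or shared calls stood further above their background there. The genes APOLD1, CYFIP1, IGSF3, PDGFC and RIPK2 rose and IL13RA1 fell in all 6 lines, while 191 rises (29.2%) and 151 falls (46.3%) of NCI-H146 were called with that sign in none of the other 5. Over all genes tested, 73.5% were not called up and 75.7% not called down in any of the 5.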

How the data were processed

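The values analysed were the log2 signals per probe set that the authors deposited in a table of 54675 probe sets and 88 arrays (range 3.15 to 15.18), per the labels from total RNA on Affymetrix HG-U133 Plus 2.0 arrays. Which program made them, and how it corrected background and scaled, is not given in the sources used here. Array medians lay between 7.36 and 7.46. Precision is limited by the number of arrays, which carry no depth. Every column matched a sample (0 without one), and groups came from the titles.

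Of the probe sets, 41091 had 1 gene symbol in the platform annotation, 1801 had several, 11721 had none and 62 were controls. Only those with 1 symbol were used. A probe set was kept where a group mean exceeded 7.41, the median of all values, and each gene was read from its brightest probe set, with the _x_at type, which can cross-hybridise, used only for want of another. This left 15352 of 19775 genes. Means below 6.09, the median lower quartile, are called dim.

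Tests used limma 3.58.1 (lmFit and eBayes, two-sided, Benjamini-Hochberg) in R 4.3.3 with version 1.17.8 of data.table, fitted to the 88 arrays as 42 group means (residual degrees of freedom 46, prior degrees of freedom 6.52). The spread was thus pooled over all lines. Contrasts were 552A minus DMSO within day, their equal mean over days, day 7 minus day 2, and NCI-H146 minus the equal mean of the 5 other time course lines. Genes called late passed at day 7 and for the change from day 2 with that sign, but not at day 2. In simulated data genes changed by 1 or 0.5, alternate ones only from day 4 on, so that their mean change over days was smaller. For the mean over days the fit recovered 99% of the genes set to 1 and 92% of those set to 0.5, with 9 false calls. For the change from day 2 to day 7 it recovered 76% and 24% of the genes that changed late, with 2 false calls. Figures and promoter counts used matplotlib 3.10.9, numpy 2.4.6, pandas 2.3.3 and Python 3.11.15.

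The line, the gene lists, the regulators and the rule for named genes were chosen with earlier results of these data known. The rule named, per direction, the 12 largest changes over days of 1 sign on all days, the 8 largest at day 2, all late and fading genes, the 6 largest differences from the other lines, and 4 members per list by size of change. Other called list members were named after their values were seen, as were the 6 genes called in all 6 lines. Alternatives were no filter or a stricter one, quantile normalization, the mean of probe sets, an intensity trend, NCI-H146 arrays alone, the replicate number as a block, the ACTB signal as a covariate or 5 arrays with high ACTB signal left out, and each NCI-H146 array left out. Leaving out arrays for the genes called at day 4 was added after seeing the data.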

Additional observations from a re-analysis of the deposited data

Results flagged for a closer look

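The response of 8 genes differed between day 2 and day 7 by the test of that difference. The change of the response on the log2 scale was 2.11 for PTPRC, 1.40 for NECTIN3, 1.27 for C7orf57, 1.01 for TRAT1, 0.90 for LGI1, 0.88 for SULT1E1, 0.88 for CD36 and -1.10 for NEB, and with the NCI-H146 arrays alone none of the 8 passed (adjusted p from 0.0547 to 0.565). The tests of PTPRC, C7orf57, TRAT1 and LGI1 may not be independent of the filter on dim probe sets.

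The response of NCI-H146 differed from the mean of the other 5 lines, by the test of that difference, by 2.56 for FRZB, 2.10 for KCNK9, 1.53 for NOTCH2, 1.48 for SORCS3, 1.37 for APCDD1, 1.35 for RUNX1T1 and 1.08 for VIM. It lay below that mean by -1.63 for NKX2-2, -1.47 for PDGFRA, -1.35 for SERTM1, -1.35 for EPHA4, -1.34 for CLDN18, -1.31 for NIBAN1, -1.12 for ISL1 and -1.12 for ZEB1. Smaller differences were called for HES1 (-0.67), YAP1 (-0.55), ST18 (0.45), CHGA (0.45) and PTPN14 (0.43). The tests of SORCS3 and PDGFRA may not be independent of the filter on dim probe sets.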

How the results depend on the processing

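With 2 arrays a group, the calls of single days depend on single arrays. With each NCI-H146 array left out in turn, the number of genes called ranged from 703 to 934 for the mean over days, 52 to 160 at day 2, 83 to 171 at day 4, 178 to 384 at day 7, 4 to 9 for the change of the response from day 2 to day 7 and 703 to 970 for the difference from the other lines. The last change was called for 4 genes without 552A day 2 replicate 2 and for 5 without DMSO day 7 replicate 2, 552A day 7 replicate 1 or 552A day 7 replicate 2. With NCI-H146 arrays alone, limma called 255 genes at day 4 and 0 for the change from day 2 to day 7 (916 at an unadjusted p under 0.05), and the stricter filter called 3 for that change. Replicate numbers were not used to pair the arrays in the main fit, and the labels do not say whether they mark pairs. The deviations of 552A and DMSO replicates correlated at -0.24, 0.08 and 0.30 on days 2, 4 and 7. With 2 arrays a group these values cannot decide it. With the replicate block the counts were 1169 over days, 234 and 478 on days 4 and 7, 0 for the change from day 2 to day 7 (915 unadjusted) and 1179 for the difference. Counts from quantile normalization, no filter, the mean of probe sets, an intensity trend and the ACTB settings stayed within 1.5 times the main ones. Over single genes, 3443 of 3655 values kept direction and side, 157 lost the call and 52 gained it. Signs turned in 3: COL3A1 to 0.044 and PDGFRA at day 2 to 0.075 without the filter, where another probe set was used, and MBD2 to -0.12 with the mean of probe sets.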
